A study of Homo sapiens with 8 samples.

Results

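The 7 genes described here encode the enzymes and enzyme relatives of coenzyme A (CoA) synthesis: the pantothenate kinase genes PANK1, PANK2, PANK3 and PANK4, and PPCS, PPCDC and COASY. They were found by symbol among the 61906 genes listed in the table, and all 7 passed the filter on low values that left 14478 genes for testing. They were selected on the same comparison that is described below, with the lower level of PPCS already known, so their differences are given as a description, and nothing is read from their place among the calls over all genes. The cells were U251, an established human glioblastoma line. 4 libraries came from cells given the vehicle DMSO and 4 from cells given 100 nM of LLY-283, a small molecule that inhibits the arginine methyltransferase PRMT5, both for 24 h. The labels name no agent besides these and give the genotype as wild type, and each group is a set of labelled biological replicates of this single line. Messenger RNA captured on oligo-dT was sequenced, and levels are given in TPM, transcript abundances scaled to transcript length and to a fixed total per library, so that levels can be set side by side between genes.

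CoA carries acyl groups through the citric acid cycle, fatty acid synthesis and breakdown, and protein acetylation. Cells build it from pantothenate, vitamin B5. A pantothenate kinase phosphorylates the vitamin in the step that sets the rate of the pathway. PPCS then joins cysteine to the product, PPCDC removes the carboxyl group of that cysteine, and the bifunctional enzyme COASY completes the last steps to CoA. PANK2 is the mitochondrial kinase, and its loss causes a neurodegeneration with brain iron accumulation. PANK4 is a relative that lacks kinase activity towards pantothenate and carries a phosphatase domain.

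Of the pantothenate kinase genes, PANK1, PANK2 and PANK3 are also host genes of microRNAs. MIR107 lies in intron 5 of PANK1, at chr10:89592747-89592827 on the minus strand of GRCh38. MIR103A2 lies in intron 5 of PANK2, at chr20:3917494-3917571 on the plus strand, and MIR103A1 in intron 5 of PANK3, at chr5:168560896-168560973 on the minus strand. Each has its host's orientation and overlaps no exon of it. The mature sequences from RefSeq on GRCh38.p14 are shown because they are nearly one sequence carried by 3 of the 7 genes. They are written 5′ to 3′, with the seed (bases 2 to 8) in capitals.
hsa-miR-107, in PANK1: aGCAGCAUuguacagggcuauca
hsa-miR-103a-3p, in PANK2 and PANK3: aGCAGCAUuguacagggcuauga
The seed was identical, and 22 of the 23 bases matched. The difference from miR-103a-3p to miR-107 was G22C, counted from the 5′ end. The 3 microRNA genes were listed at 0 TPM in all 8 libraries, which were made from captured polyadenylated RNA, so the values below concern the host messages alone.

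Of the libraries, LLY-283 replicate 4 stood apart. Transcripts of the mitochondrial genome took 7.19% of its TPM, against 10.6 to 11.0% in the other LLY-283 libraries and 10.2 to 10.7% in vehicle. Replicates of one group otherwise correlated at Pearson r = 0.963 to 0.971 over all genes tested, and 24042 to 24757 genes were above 0 per library. TPM keeps no record of sequencing depth, so depth is unknown and no counting interval can be given. PRMT5 itself was at 100.2 TPM on average over the 8 libraries and did not pass the test between groups (log2 fold change 0.01, SE 0.047, limma adjusted p = 0.944). All 8 of the neural and mesenchymal markers looked for in this line averaged at least 1 TPM, and their summed level was 7503 to 7684 TPM in vehicle and 7195 to 7563 TPM with LLY-283. By limma, NES, SOX2, GFAP and FABP7 were lower with LLY-283 (log2 fold changes of -0.17 to -0.27) and CD44 was higher (0.11), while VIM, S100B and EGFR did not pass. Whether these differences have a part in those of the members was not tested. Among markers of other cell types, the epithelial keratin gene KRT18 and CD68 also did, and CD3E was at 0 in every library. In bulk RNA, fewer cells of a kind and less RNA per cell cannot be told apart.

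PPCS was the member with the largest difference. Its level was 92.8, 94.7, 91.6 and 91.3 TPM in vehicle replicates 1 to 4 and 59.9, 57.4, 59.0 and 57.5 TPM in LLY-283 replicates 1 to 4. Every LLY-283 library was far below every vehicle library, and within each group the libraries were nearly level. The mean was 92.6 ± 1.52 TPM (SD, n = 4) in vehicle and 58.5 ± 1.21 TPM (SD, n = 4) with LLY-283, or 63.1% of vehicle. The log2 fold change, taken here and below on log2(TPM + 0.1) as LLY-283 minus vehicle, was -0.66 (SE 0.028). PPCS had the 581st lowest log2 fold change of 14478 genes, and the 18th lowest of the 3382 genes that averaged at least 50 TPM, a limit chosen after the values were seen.

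**Figure D1:**
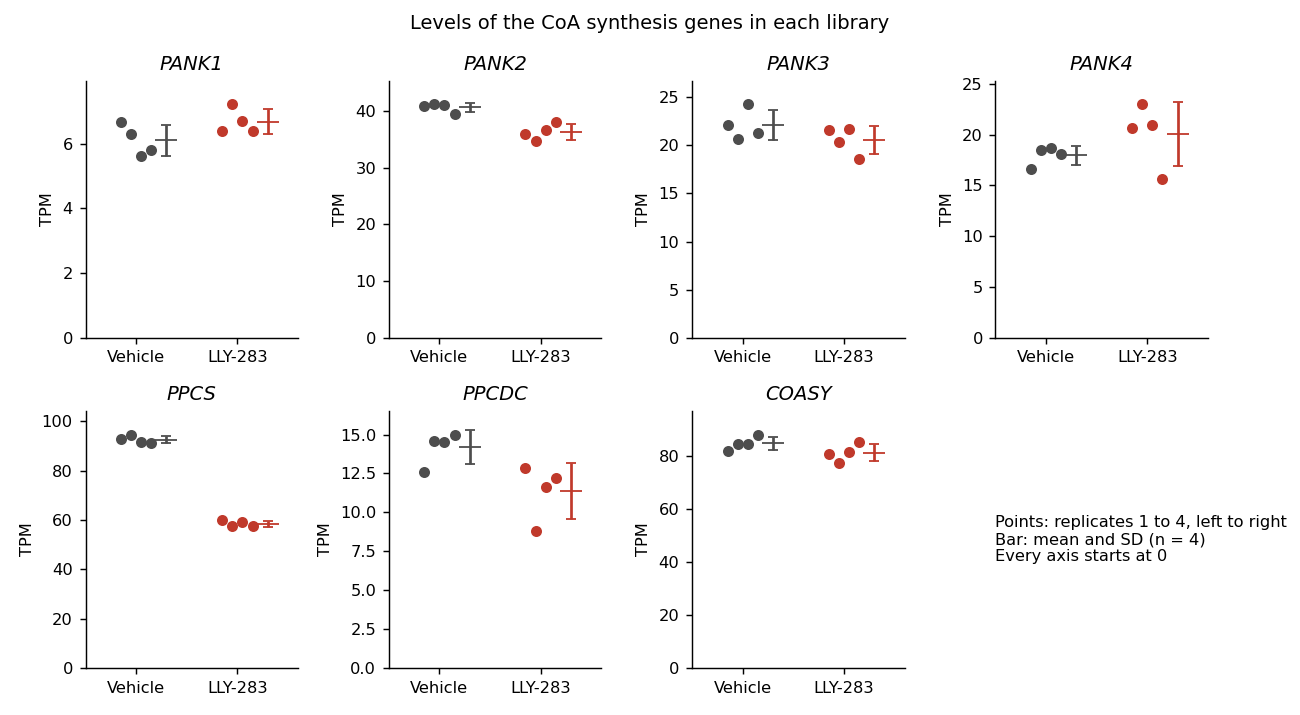
TPM of each of the 7 genes in every library, with replicates 1 to 4 from left to right and the group mean and SD (n = 4) beside them on axes that start at 0. The PPCS groups are separated by a wide gap, at 91.3 to 94.7 and 57.4 to 59.9 TPM, those of PANK2 by a narrow one, and those of the other 5 genes overlap.

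PPCS (ENSG00000127125) lies at chr1:42456117-42473385 on the plus strand of GRCh38. Its canonical transcript in GENCODE 44 has 3 exons and 2269 bases, with 44.6% GC. The gene overlaps 2 others. CCDC30, on the same strand, shared 217 of the 3495 distinct 50-base words in the PPCS transcripts (6.21%). ZMYND12, on the opposite strand, had at most 0.19 TPM in any library. CCDC30 was at 2.94, 3.57, 4.08 and 3.43 TPM in vehicle and 2.86, 2.95, 1.92 and 2.08 TPM with LLY-283. These levels were a small fraction of those of PPCS and the groups overlapped. The log2 fold change of CCDC30 was -0.51 (SE 0.166, limma adjusted p = 0.0476), and it kept its call in 7 of 17 other settings. How reads in the shared stretch were divided between the genes was not tested.

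PPCDC, the decarboxylase that follows PPCS, was at 12.6, 14.6, 14.5 and 15 TPM in vehicle and 12.9, 8.78, 11.6 and 12.2 TPM with LLY-283. Vehicle replicate 1 and LLY-283 replicate 1 crossed over, and LLY-283 replicate 2 was well below the rest. Vehicle averaged 14.2 ± 1.08 TPM (SD, n = 4) and LLY-283 11.4 ± 1.80 TPM (SD, n = 4). On the log2 scale PPCDC was at -0.33 (SE 0.114). This value rested in part on LLY-283 replicate 2, for it was -0.21 without that library. PPCDC (ENSG00000138621) lies at chr15:75023586-75117462 on the plus strand and has 6 exons.

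COASY, the enzyme of the last steps, differed least in proportion with all 8 libraries at their deposited TPM. PANK3 differed less under quantile normalization, without vehicle replicate 3 and without LLY-283 replicate 4. COASY was at 81.8, 84.3, 84.4 and 87.9 TPM in vehicle and 80.5, 77.3, 81.2 and 85.1 TPM with LLY-283, and LLY-283 replicates 1 to 3 were below every vehicle library. The groups overlapped through LLY-283 replicate 4 alone, the library with the low mitochondrial share, and the log2 fold change given next was -0.09 without it and -0.04 without LLY-283 replicate 2. Means of 84.6 ± 2.49 and 81.0 ± 3.21 TPM (SD, n = 4 each) gave a log2 fold change of -0.06 (SE 0.037), close to the median of -0.05 over all genes tested. Its sign changed to 0.02 once a trend of the levels with GC content and length of the transcript was taken out. COASY (ENSG00000068120) lies at chr17:42561467-42566277 on the plus strand in 9 exons.

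Among the kinases, PANK2 had the highest level and was the second member whose groups did not overlap. Its values were 40.96, 41.2, 41.1 and 39.5 TPM in vehicle and 36.0, 34.7, 36.7 and 38.1 TPM with LLY-283. The gap between the groups was narrow, with vehicle replicate 4 and LLY-283 replicate 4 nearest to each other. The log2 fold change was -0.16 (SE 0.037), from 40.7 ± 0.783 to 36.4 ± 1.42 TPM (SD, n = 4 each). PANK2 (ENSG00000125779, chr20:3888839-3929887, plus strand) shared 2530 of 9360 words with RNF24 on the opposite strand. RNF24 had 16.8 to 20.3 TPM, and its log2 fold change of -0.13 did not pass the test (limma adjusted p = 0.0854). Whether reads were counted by strand is not stated in the sources used here.

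PANK3, a cytosolic kinase, was at 22.1, 20.7, 24.3 and 21.3 TPM in vehicle and 21.6, 20.3, 21.7 and 18.6 TPM with LLY-283. The groups overlapped, with the highest library in vehicle and the lowest in LLY-283, and the log2 fold change was -0.10 (SE 0.066). It was -0.06 without that vehicle library (replicate 3) and -0.06 without that LLY-283 library (replicate 4). PANK1 was the lowest of the 7, at 6.66, 6.29, 5.62 and 5.81 TPM in vehicle and 6.40, 7.21, 6.69 and 6.38 TPM with LLY-283. Its groups overlapped too, and its log2 fold change was 0.13 (SE 0.076). PANK3 (ENSG00000120137) lies at chr5:168548495-168579368 and PANK1 (ENSG00000152782) at chr10:89579497-89645242, both on the minus strand with 7 exons. A processed pseudogene, SLC2A3P1, shared 1402 of 10395 words of PANK3 (13.5%) and was listed at 0 in all libraries.

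PANK4 was at 16.6, 18.4, 18.7 and 18.0 TPM in vehicle and 20.7, 23.0, 20.9 and 15.6 TPM with LLY-283. LLY-283 replicates 1 to 3 were all above vehicle, while replicate 4, the library with the low mitochondrial share, was below every vehicle library. The log2 fold change was 0.15 (SE 0.106) with all libraries and 0.26 without LLY-283 replicate 4, but 0.08 without LLY-283 replicate 2. The part of the mitochondrial share in this value was not tested. PANK4 (ENSG00000157881) lies at chr1:2508537-2526597 on the minus strand and has 19 exons, the most of the 7. None of the 7 genes shared a 50-base word with another member.

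**Figure D2:**
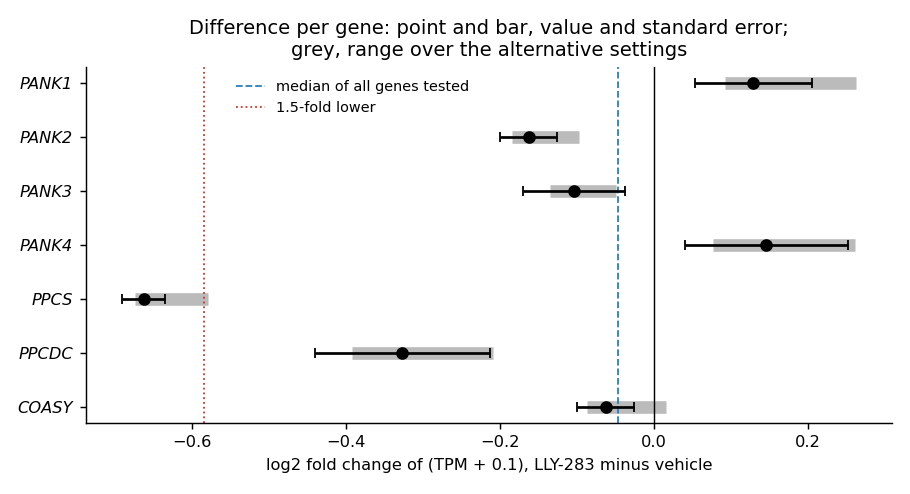
Log2 fold change of each gene on the log2(TPM + 0.1) scale, LLY-283 minus vehicle, with points for the value, bars for the standard error and grey bands for the range over 18 other settings. PPCS, at -0.66, lies apart from the other 6 genes, which run from -0.33 to 0.15 around the dashed median of all genes at -0.05.

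By sign, 5 of the 7 genes were lower with LLY-283 and PANK1 and PANK4 were higher. The median log2 fold change of the 7 was -0.10, and -0.08 without PPCS, beside -0.05 over all genes tested. With limma and Benjamini-Hochberg adjustment over all genes, 17.6% of the 14478 were lower and 8.61% higher at an adjusted p under 0.05; PPCS and PANK2 were among the former and no member was among the latter. Of all genes, 3.48% were also lower by over 1.5-fold, and PPCS was the one member there. In 19.6% of genes all 4 LLY-283 libraries were below all vehicle libraries, as in PPCS and PANK2, and in 9.63% they were above, as in no member. These counts hold for the fit as described and repeat the comparison on which the genes were chosen. Under 18 other settings PPCS was lower each time, from -0.68 to -0.58. PANK2 was lower each time as well, from -0.18 to -0.10. At an adjusted p under 0.05 PPCS was called in all 18, but it was lower by over 1.5-fold in 17 of them. PANK2 was called in 16 of the 18, but not under median-of-ratios scaling or after removal of the GC and length trend. PPCDC was called lower without LLY-283 replicate 1, PANK1 higher under quantile normalization and PANK4 higher without LLY-283 replicate 4. COASY and PANK3 were called in none of these settings.

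The order of levels changed at the top. In vehicle it ran PPCS, COASY, PANK2, PANK3, PANK4, PPCDC and PANK1, and no neighbours in that order overlapped in their libraries. With LLY-283, COASY stood first and PPCS second, again without overlap between them, and the ranges of PANK3 (18.6 to 21.7 TPM) and PANK4 (15.6 to 23.0 TPM) overlapped. The ratio of PPCS to COASY, which does not depend on how a library is scaled, was 1.13, 1.12, 1.08 and 1.04 in vehicle and 0.744, 0.743, 0.727 and 0.676 with LLY-283. PPCS thus passed from above COASY in all 4 vehicle libraries to below it in all 4 LLY-283 libraries.

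The summed TPM of the 7 genes was 278 ± 3.14 in vehicle and 234 ± 4.42 with LLY-283 (SD, n = 4 each), 43.8 TPM lower. Without PPCS the sums were 186 ± 3.47 and 176 ± 3.40 TPM, which still did not overlap but lay only 9.62 TPM apart. The share of PPCS in the sum was 33.9, 33.8, 32.7 and 32.7% in vehicle and 25.2, 25.1, 24.8 and 24.6% with LLY-283. The difference was -8.35 percentage points, and -8.55 to -8.14 points when each library was left out in turn. Shares sum to the whole, so a lower share of PPCS leaves higher shares to other genes, and that of COASY was 30.4 ± 0.741% in vehicle and 34.6 ± 1.28% with LLY-283. The 4 kinase genes together held 86.8 ± 2.07 TPM in vehicle and 83.6 ± 3.38 TPM with LLY-283, and those groups overlapped. For the 3 genes with pantothenate kinase activity the sums were 68.9 ± 1.90 and 63.6 ± 1.24 TPM and did not overlap. Of the summed TPM of the 4 PANK genes, PANK4 included, PANK2 made up 46.9 ± 0.781% in vehicle and 43.6 ± 3.36% with LLY-283. LLY-283 replicate 4 had the highest PANK2 share of any library, 48.4%, so the groups overlapped.

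**Figure D3:**
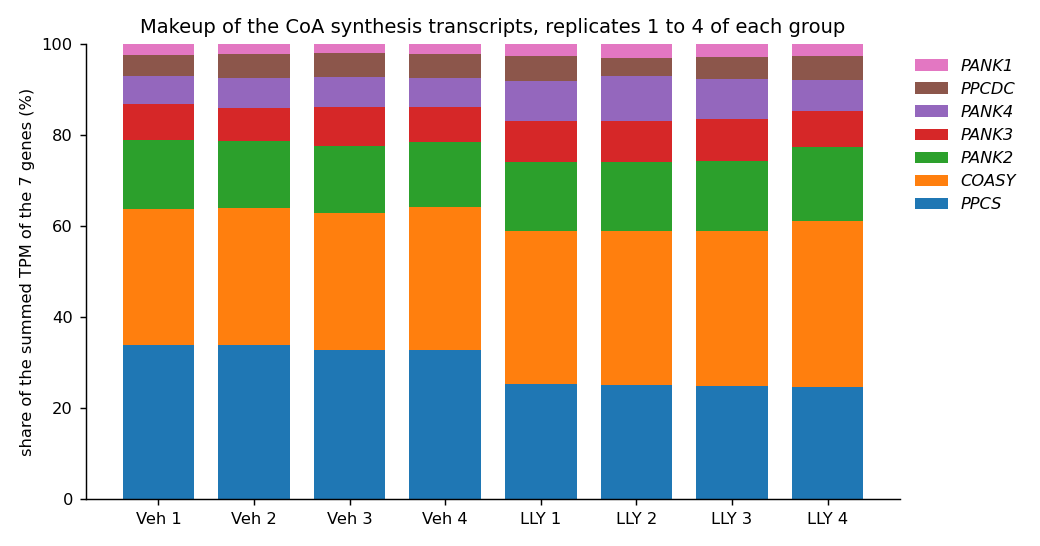
Share in percent of the summed TPM of the 7 genes taken by each gene, one bar per library. The PPCS block at the base takes 32.7 to 33.9% in the vehicle libraries and 24.6 to 25.2% in the LLY-283 libraries, and the block of COASY above it is wider in the latter.

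The members differed in how closely replicates kept together. PPCS was the tightest, with a coefficient of variation of 1.65% in vehicle and 2.08% with LLY-283. PPCDC (7.65 and 15.8%) and PANK4 (5.06 and 15.7%) were the loosest with LLY-283. LLY-283 replicate 2 held the lowest PPCS, PPCDC, COASY and PANK2 of its group and the highest PANK1 and PANK4. LLY-283 replicate 4 had the reverse for 4 of these genes, with the highest COASY and PANK2 and the lowest PANK1 and PANK4, and it also had the lowest PANK3. Deviations from the group means over the 8 libraries, on the log2 scale, were compared between all pairs of members. Only the largest correlations in size are given here. PPCDC and PANK1 varied against each other (Pearson r = -0.79), as did PANK2 and PANK4 (r = -0.79). PPCDC and COASY varied together (r = 0.75), and COASY and PANK1 came next, against each other (r = -0.73). The points share libraries and their scaling, and these values are a description.

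Genes next to the members were also examined. Of 27 genes that overlap a member or lie within 10 kb of it, 6 passed the filter, 3 of which were lower with LLY-283 and none higher, where 17.6 and 8.61% of all genes were. Besides CCDC30 these were PSMC3IP, 6033 bases from COASY (log2 fold change -0.50, limma adjusted p = 0.000802), and the antisense transcript HSD17B1-AS1, 6626 bases from COASY (log2 fold change -0.30, limma adjusted p = 0.00632). PSMC3IP, which acts in meiotic recombination, was at 50.3 to 58.3 TPM in vehicle and 35.4 to 43.5 TPM with LLY-283. MLX, 795 bases from COASY, did not pass the test (log2 fold change 0.10, adjusted p = 0.105), nor did PANK2-AS1 (log2 fold change -0.71, adjusted p = 0.142), which averaged 1.09 TPM.

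Upstream of the pathway, 4 of 5 listed symbols for uptake of pantothenate and recycling of pantetheine were found, and 1 gene could be tested. SLC5A6, the sodium-dependent multivitamin transporter, had 36.9 to 39.6 TPM in vehicle and 37.1 to 42.8 TPM with LLY-283 and did not pass the test (log2 fold change 0.06, SE 0.047, adjusted p = 0.391). The pantetheinase genes VNN1 and VNN2 and the pseudogene VNN3P were at 0.01 TPM or less in every library.

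Cysteine is the other substrate of PPCS, and 3 of the 5 genes listed for its supply were lower and none higher, with a list median of -0.23; over all genes tested 17.6% were lower and the median was -0.05. CTH, which releases cysteine from cystathionine, was at 7.75, 6.90, 8.0 and 7.02 TPM in vehicle and 5.33, 5.40, 4.59 and 5.62 TPM with LLY-283. No LLY-283 library reached the vehicle range, and the log2 fold change was -0.50 (SE 0.084, limma adjusted p = 0.00283). CBS, which makes cystathionine, fell by 0.36 on the log2 scale (SE 0.092, adjusted p = 0.0192), from 13.3 ± 0.517 to 10.4 ± 1.39 TPM. Its call was lost without vehicle replicate 2 or vehicle replicate 4, with an adjusted p of up to 0.0585. SLC7A11, the cystine importer, was at 69.8, 65.1, 72.7 and 64.9 TPM in vehicle and 59.6, 58.8, 59.6 and 54.3 TPM with LLY-283. The groups were apart, and it fell by 0.23 (SE 0.048, adjusted p = 0.00766). Its partner chain SLC3A2, the most abundant of the list, had a log2 fold change of -0.12 (adjusted p = 0.055) with groups that overlapped. It was called lower in 5 of 18 other settings, and its log2 fold change was -0.02 after removal of the GC and length trend.

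Of the 6 genes for CoA transport and breakdown, with DCAKD, 3 were lower and 1 higher (median -0.15), where 17.6 and 8.61% of all genes were. The lower count was 1 without vehicle replicate 4, LLY-283 replicate 1 or LLY-283 replicate 3, under quantile normalization and after removal of the GC and length trend. The higher count was 2 under quantile normalization. NUDT7, a peroxisomal CoA hydrolase, was at 5.38 to 8.17 TPM in vehicle and 3.92 to 5.11 TPM with LLY-283 and fell by 0.58 (SE 0.138, limma adjusted p = 0.0141). DCAKD, which carries a dephospho-CoA kinase domain, fell by 0.21 (SE 0.054, adjusted p = 0.0188), a call that 7 of 18 other settings did not make. NUDT8, a mitochondrial CoA hydrolase, was lower by 0.37 (adjusted p = 0.0291), but its groups overlapped and 10 of 17 other settings did not call it. NUDT19, also a CoA hydrolase, went the other way, from 14.3 ± 0.258 to 16.4 ± 0.746 TPM (log2 fold change 0.20, SE 0.046, adjusted p = 0.0117).

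Proteins that receive the phosphopantetheine arm of CoA, and the enzymes that transfer it, gave 1 higher and 1 lower of 5 tested (20% each, median -0.12), where 8.61% of all genes were higher and 17.6% lower. The count was 2 higher under quantile normalization, median-of-ratios scaling or removal of the GC and length trend. FASN, the cytosolic fatty acid synthase, fell from 336 ± 5.11 to 287 ± 4.62 TPM, by 0.23 on the log2 scale (SE 0.024, limma adjusted p = 0.000274). NDUFAB1, the mitochondrial acyl carrier protein, rose from 153 ± 4.72 to 172 ± 7.54 TPM (log2 fold change 0.17, SE 0.038, adjusted p = 0.0103).

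Among enzymes that use CoA, 3 of 14 tested acyl-CoA synthetases were lower and none higher (median -0.08). That was 21.4%, near the 17.6% of all genes, and 11 of 18 other settings gave 2. ACSL3, which activates long-chain fatty acids, was at 111 to 115 TPM in vehicle and 89.9 to 94.6 TPM with LLY-283, and fell by 0.30 (SE 0.029, limma adjusted p = 0.000172). SLC27A1 fell by 0.33 (SE 0.056, adjusted p = 0.00274). SLC27A3 was called at an adjusted p of 0.0497 with overlapping groups, and 15 of 18 other settings did not call it. ACLY, which makes acetyl-CoA from citrate and was the most abundant of the list, had a log2 fold change of -0.09 (adjusted p = 0.0604) and was called lower in 3 of 18 other settings. None of 8 acyl-CoA thioesterases tested passed in either direction by limma (median -0.02), where 17.6% of all genes were lower and 8.61% higher, and 1 was lower at an unadjusted p under 0.05. ACOT7, the most abundant of them, had a log2 fold change of 0.00 (SE 0.042, adjusted p = 0.943).

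The mitochondrial enzymes that hold CoA as substrate or product were the one list with higher calls alone, 3 of 11 (median 0.08) where 8.61% of all genes were higher. The count depended on scaling, and was 8 under median-of-ratios scaling, where 13.3% of all genes were higher, and 8 after removal of the GC and length trend, where 19.4% were. PDHB, a subunit of pyruvate dehydrogenase, rose from 79.0 ± 1.80 to 87.7 ± 2.18 TPM (log2 fold change 0.15, SE 0.030, limma adjusted p = 0.00671). DLAT, its acetyl transferase subunit, rose by 0.20 (SE 0.050, adjusted p = 0.0159). CS, citrate synthase, was at 227 to 235 TPM in vehicle and 245 to 255 TPM with LLY-283 and rose by 0.11 (SE 0.025, adjusted p = 0.0100). PDHA1, the most abundant, had a log2 fold change of 0.00 (adjusted p = 0.968). Over all 7 lists, 10 of 50 genes tested were lower (20%) and 5 higher (10%), beside 17.6 and 8.61% of all genes, so these shares were near the background. List genes called lower were 6 without vehicle replicate 4, where 13% of all genes were. Those called higher were 11 under median-of-ratios scaling and 11 after removal of the GC and length trend, settings in which the share over all genes was also larger, as given above.

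**Figure D4:**
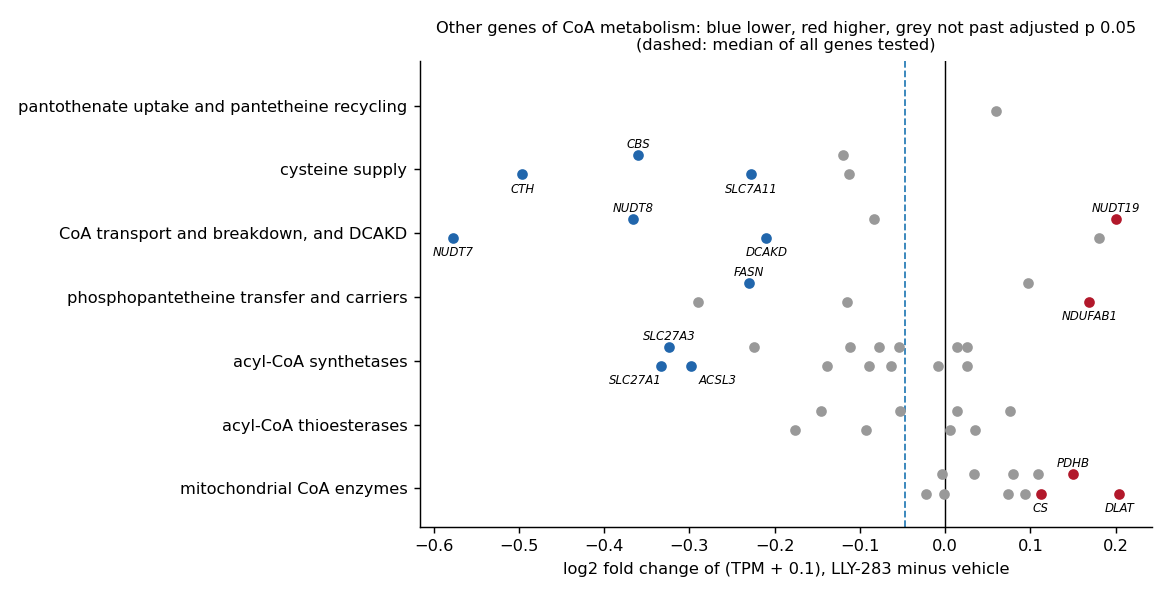
Log2 fold change on the log2(TPM + 0.1) scale, LLY-283 minus vehicle, of every tested gene in 7 lists around CoA metabolism, blue where lower and red where higher at an adjusted p under 0.05 and grey otherwise. The cysteine supply genes lie left of 0, and called genes among the mitochondrial enzymes lie right of it.

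The genes whose values over the 8 libraries were most like those of PPCS, by Pearson correlation of log2(TPM + 0.1), were CEBPZOS (r = 0.9991), the unnamed gene ENSG00000272405 (0.9980), TAF15 (0.9952), PAQR4 (0.9947) and SHMT1 (0.9943). CEBPZOS was at 69.4 to 72.3 TPM in vehicle and 42.4 to 44.3 TPM with LLY-283, 61.5% of the vehicle mean. TAF15, an RNA-binding protein gene, was at 60.4%, PAQR4 at 64.7%, ENSG00000272405 at 50.5% and SHMT1, the cytosolic serine hydroxymethyltransferase gene, at 76.5%. Among the most opposite genes were TM9SF4 (r = -0.9957), EDN1 (-0.9951), CCN2 (-0.9948) and SRSF4 (-0.9943), with LLY-283 means at 119, 143, 136 and 126% of vehicle. Of the other members, PANK2 was most like PPCS (r = 0.907), followed by PPCDC (0.724), COASY (0.576) and PANK3 (0.517), while PANK4 (-0.414) and PANK1 (-0.607) were opposite. The 8 points fall into the 2 groups of libraries, so these correlations mainly restate the difference between groups and are a description.

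**Figure D5:**
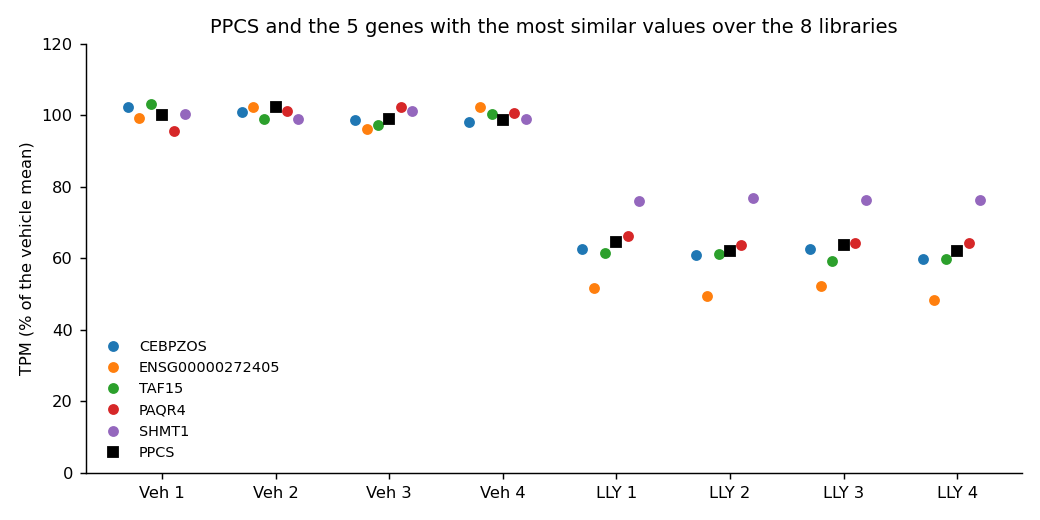
TPM in percent of the gene's own vehicle mean for PPCS (black squares) and the 5 genes most like it, in each library, with symbols set side by side for legibility. All 6 genes are near 100% in the vehicle libraries, and with LLY-283 their group means run from 50.5% for ENSG00000272405 to 76.5% for SHMT1.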

How the data were processed

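RNA from U251 cells, 4 vehicle and 4 LLY-283 libraries, was sequenced after oligo-dT capture. The deposited values are TPM per gene, which the authors estimated with RSEM from reads trimmed with cutadapt and aligned with STAR to GRCh38. The submitters' processing notes name STAR 2.7.0f, RSEM 1.3.1 and cutadapt 1.18, while the study's methods name other releases of STAR and RSEM. RSEM divides reads that match several genes by estimated probability, which can move reads between overlapping genes. Fractional TPM with no counts allow no count test, so log2(TPM + 0.1) of 14478 genes averaging at least 1 TPM was fitted with limma 3.58.1 in R 4.3.3 (eBayes with trend, no block, all 8 libraries), with Benjamini-Hochberg adjustment over all of them and a threshold of 0.05. The fit was also run on simulated data, scored on changes over 1.5-fold, so that run does not bear on calls of smaller changes. Another 30435 genes were at 0 throughout.

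Members and lists were chosen with earlier results of these data known. Named genes were the members, PRMT5, in each list up to 3 called genes per direction by smallest p and the most abundant, neighbours within 10 kb, and the 5 genes most and least correlated with PPCS. Some items that these rules name are not reported here. Positions, transcript features and shared words came from GENCODE 44 and microRNAs from RefSeq. The study's methods name an earlier GENCODE release for the expression estimates, so the transcripts used there can differ. Alternatives were pseudocounts of 0.5 and 1, other filters and scalings, removal of a GC and length trend, robust eBayes, a replicate block, and leaving out each library.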

Additional observations from a re-analysis of the deposited data

Results flagged for a closer look

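Of 64 groups of 4 libraries examined, 5 held a library far from the other 3 for the range of its group by Dixon's test, and about 1 group in 20 would do so by chance. Mitochondrially encoded transcripts took 7.19% of the TPM in LLY-283 replicate 4. PANK2 was at 39.54 TPM in vehicle replicate 4, against 40.96 to 41.2 TPM in the other vehicle libraries. SLC7A11 was at 54.34 TPM in LLY-283 replicate 4, and ACOT7 at 172.49 TPM in that library. NUDT8 was at 4.57 TPM in vehicle replicate 2, below LLY-283 replicate 2 at 4.75 TPM.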

How the results depend on the processing

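Over 18 other settings each of the 7 genes kept the sign of its difference, except COASY, which was 0.016 after removal of the GC and length trend. Under median-of-ratios scaling PPCS was at -0.62 and PANK2 at -0.12, and after removal of that trend they were at -0.58 and -0.10, so that PPCS was no longer lower by over 1.5-fold. PANK1 was at 0.26 under quantile normalization. Lower genes were 67.1% of calls over all genes, 49.3% under quantile normalization, 49.2% under median-of-ratios scaling and 37.0% after removal of the trend. The genes called lower numbered 2541, or 1644 after removal of the trend. Those called higher numbered 1247, and 1871, 1927 and 2801 under those 3 settings. Those lower by over 1.5-fold numbered 504, or 313 with a pseudocount of 1, 202 among genes averaging at least 5 TPM, 260 under quantile normalization and 335 after removal of the trend. Of the list genes, 10 were lower, and 6 to 10 when each library was left out (6 without vehicle replicate 4). List genes called higher were 11 under median-of-ratios scaling and 11 after removal of the trend, against 5. The cause was not tested.

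Same-numbered libraries of the 2 groups deviated from their group means with r = -0.0851 to 0.032, and libraries of different number with r = -0.213 to 0.201. These values gave no sign of pairing by number. They cannot show whether same-numbered libraries were prepared together. With a replicate block 2201 genes were lower and 1095 higher. Depth is unknown for TPM, so small differences in low genes such as PANK1 and PPCDC have no counting error to be set against.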
